A study of Mus musculus with 19 samples.

Results

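The 40 genes described here encode the core machinery that licenses origins, unwinds and copies DNA, joins the new strands and supplies the nucleotides. They were taken by name from the table of 24972 genes, before any filter, and all 40 were listed and all 40 passed the filter on low values, as did 16625 genes in all. Gene expression had been measured by RNA sequencing of plantaris tendon, a slender tendon of the mouse calf, in 19 libraries. There were 4 groups of 4 libraries from mice given tamoxifen and a growth stimulus: Scx- mice after 7 and after 14 days, and Scx+ mice after 7 and after 14 days. The fifth group was 3 libraries from unstimulated Scx+ mice without tamoxifen, called controls below. Scx encodes scleraxis, a transcription factor of the tendon lineage, and its signal was 1.7 to 17.2 units in the 8 Scx- libraries, against 2095.7 to 8044.2 units in the 8 stimulated Scx+ libraries and 318.7 to 592.6 units in controls. The series title describes the Scx- mice as carrying a deletion aimed at this gene. The labels give neither the alleles, the driver of the deletion, the kind of stimulus, strain, age nor sex, and no unstimulated Scx- group was analysed here. Against the controls, the stimulus and tamoxifen cannot be told apart, and for Scx- neither can the genotype. Nothing in the labels says that replicates were different animals, and each p measures only the spread between these samples, which may be technical.

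Before S phase, the origin recognition complex marks replication origins, and Cdc6 and Cdt1 load onto it the ring of Mcm proteins that later becomes the helicase. Firing adds Cdc45, the GINS complex and Mcm10, after which primase and the polymerases alpha, delta and epsilon copy the strands. The clamp Pcna holds the polymerases on DNA, RPA coats the single strands, and Fen1 and Lig1 join the lagging strand pieces. In many cell types the transcripts of these genes are low in resting cells and high in dividing ones, under control of E2F factors, and adult tendon cells divide rarely.

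All values below are the authors' scaled signal after a further rescaling to a common median, in units with no absolute meaning. The number of reads behind them is unknown, so no counting error is given. Together the 40 genes held a share of 798 to 1250 ppm of the signal in Scx- libraries of day 7 and 749 to 1010 ppm in Scx+ libraries of day 7. Their share at day 14 was 506 to 612 ppm for Scx- and 438 to 733 ppm for Scx+, against 333 to 398 ppm for controls. The libraries differed in muscle as well: 21 genes of skeletal muscle fibres held 0.376% to 6.33% of the signal in Scx- and 0.0386% to 2.22% in Scx+ libraries of day 7, but 25.8% to 31.1% in controls. At day 14 they held 16.7%, 19.6%, 4.63% and 4.38% in Scx- and 0.27% to 9.12% in Scx+. Tendon lineage genes (11 listed, Scx among them) were above 0 in every library. They held 4.18% to 6.59% in Scx- and 6.33% to 9.87% in Scx+ at day 7. At day 14 they held 1.19% to 7.66% in Scx- and 6.4% to 9.74% in Scx+, against 0.283% to 0.924% in controls. In whole tissue, fewer cells of a type and less RNA per cell cannot be told apart.

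At day 7 most replication genes stood above the unstimulated tendon in both genotypes. In Scx- mice 30 of the 40 rose, 3 fell and 7 did not pass the test, where 58.2% of all tested genes passed, 32.3% higher and 25.9% lower. In Scx+ mice the counts were again 30, 3 and 7, where 61.3% of all genes passed, 33.8% higher and 27.5% lower. The median difference of the 40 genes was 1.44 log2 units in Scx- and 1.35 in Scx+, beside 0.14 and 0.18 over all tested genes. These changes are on the scale of log2(signal + 2), with limma's moderated test over all 16625 genes, Benjamini-Hochberg adjustment and a threshold of 0.05 throughout. Every library of the stimulated group lay above every control for 28 genes in Scx- and 29 in Scx+, where 30.8% and 33.4% of all genes did so. Every one lay below for 3 genes in each, where 27.3% and 28.9% did. Both comparisons use the same 3 control libraries. With the mean muscle fibre signal as a covariate, 22 rose and 3 fell in Scx-, while 12 rose and none fell in Scx+. Of all 16625 genes, that fit called 6570 in Scx- and 4146 in Scx+. The muscle shares at day 7 and in controls do not overlap, so muscle content and the stimulus cannot be told apart there.

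**Figure D1:**
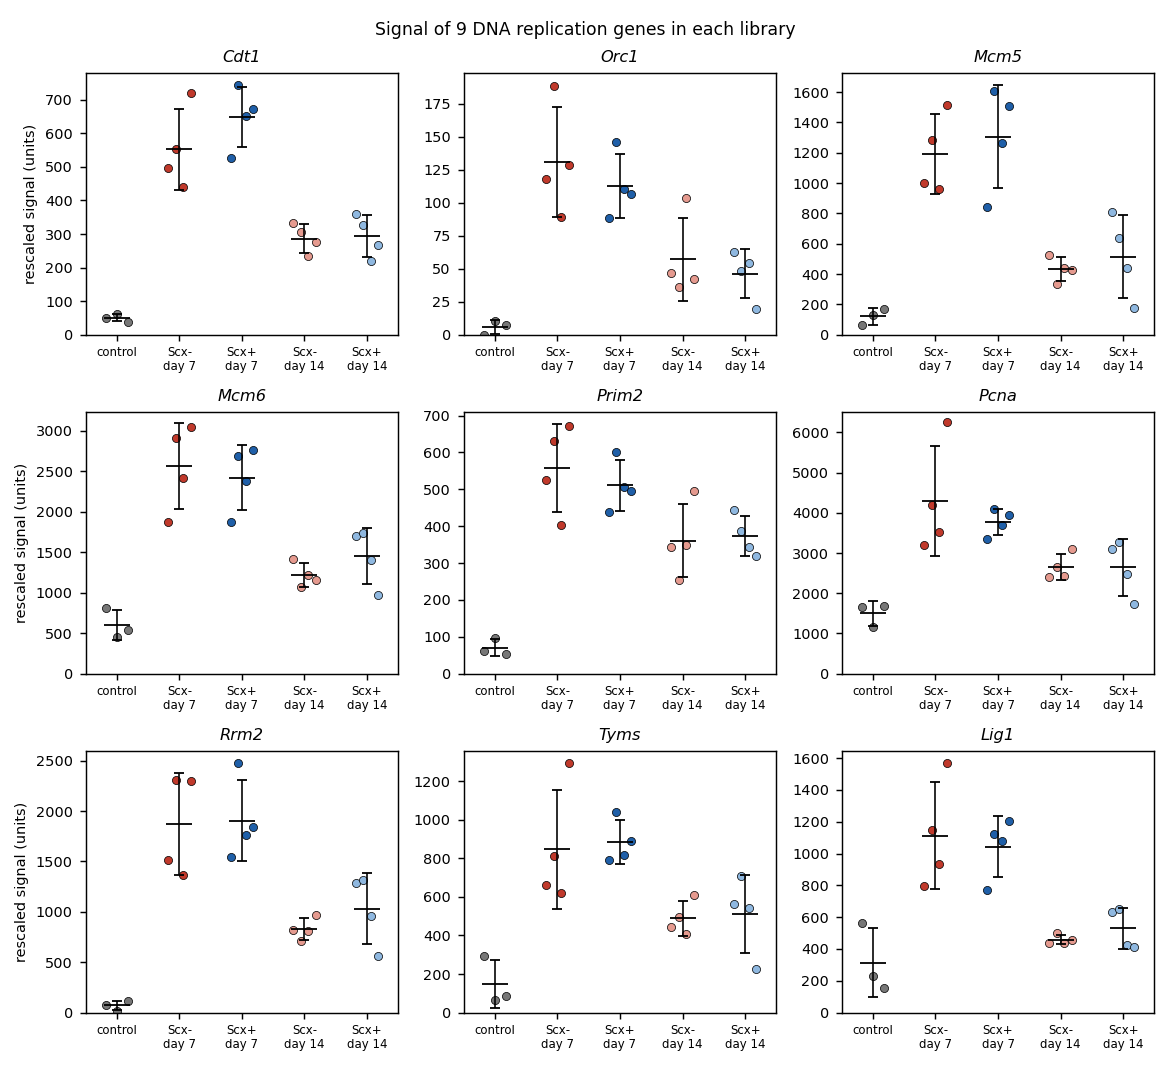
Rescaled signal (y axis, units) of 9 DNA replication genes in each library, for controls and for Scx- and Scx+ mice at day 7 and day 14. Dots are libraries, the wide bar is the group mean and the whiskers are 1 SD (n = 3 controls, n = 4 in each other group). All 8 libraries of day 7 lie above all controls in each panel. All 8 libraries of day 14 do as well in every panel but those of Tyms and Lig1.

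The promoters of 7 genes that recur below are printed here: 4 whose promoters hold a match to an E2F octamer and which rose at day 7, Rrm2, which rose most, and Pold2 and Rpa1, which fell. They were chosen with the values known. Sequences are from RefSeq (GRCm38.p6), 250 bases before to 50 bases after the annotated start, read 5′ to 3′ on the strand of the gene. Runs of 8 or more capitals are matches to the E2F octamers TTTGGCGC, TTTCCCGC, TTTGCCGC or TTTCGCGC on either strand, and runs of 5 capitals are CCAAT or its reverse ATTGG. A run of 12 capitals is 2 octamers on opposite strands that share 4 letters.
Cdt1, chr8:122567765-122568064, plus strand: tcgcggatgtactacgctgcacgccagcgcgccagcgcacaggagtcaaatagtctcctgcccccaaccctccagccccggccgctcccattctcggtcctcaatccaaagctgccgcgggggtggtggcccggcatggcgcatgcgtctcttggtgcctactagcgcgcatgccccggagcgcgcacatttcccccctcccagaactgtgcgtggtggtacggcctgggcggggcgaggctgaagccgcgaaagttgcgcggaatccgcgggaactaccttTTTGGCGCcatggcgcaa
Orc1, chr4:108579204-108579503, plus strand: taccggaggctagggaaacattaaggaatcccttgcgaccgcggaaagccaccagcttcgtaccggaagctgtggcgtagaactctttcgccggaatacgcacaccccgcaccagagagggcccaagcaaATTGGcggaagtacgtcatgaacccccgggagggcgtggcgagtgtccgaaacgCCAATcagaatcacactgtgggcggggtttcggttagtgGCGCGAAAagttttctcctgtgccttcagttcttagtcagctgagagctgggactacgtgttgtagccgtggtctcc
Mcm5, chr8:75109259-75109558, plus strand: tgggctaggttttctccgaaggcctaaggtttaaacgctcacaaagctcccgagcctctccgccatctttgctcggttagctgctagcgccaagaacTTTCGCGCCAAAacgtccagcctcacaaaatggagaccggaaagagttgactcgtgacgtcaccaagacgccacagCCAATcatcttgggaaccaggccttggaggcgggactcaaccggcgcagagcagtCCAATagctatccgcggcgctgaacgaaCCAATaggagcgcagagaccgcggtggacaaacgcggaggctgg
Mcm6, chr1:128359656-128359955, minus strand: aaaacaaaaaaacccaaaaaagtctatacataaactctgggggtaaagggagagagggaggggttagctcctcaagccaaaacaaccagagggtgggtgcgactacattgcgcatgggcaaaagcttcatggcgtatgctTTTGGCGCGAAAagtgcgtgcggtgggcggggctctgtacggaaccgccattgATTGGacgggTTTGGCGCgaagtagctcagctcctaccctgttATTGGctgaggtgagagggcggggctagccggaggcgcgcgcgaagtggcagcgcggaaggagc
Rrm2, chr12:24708004-24708303, plus strand: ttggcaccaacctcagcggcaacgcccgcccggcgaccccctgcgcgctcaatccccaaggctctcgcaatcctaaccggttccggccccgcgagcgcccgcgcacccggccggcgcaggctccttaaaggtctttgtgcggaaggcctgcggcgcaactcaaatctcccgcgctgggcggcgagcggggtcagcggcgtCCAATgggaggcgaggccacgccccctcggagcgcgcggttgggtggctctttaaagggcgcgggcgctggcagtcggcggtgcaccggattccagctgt
Pold2, chr11:5878207-5878506, minus strand, the first of 2 listed starts: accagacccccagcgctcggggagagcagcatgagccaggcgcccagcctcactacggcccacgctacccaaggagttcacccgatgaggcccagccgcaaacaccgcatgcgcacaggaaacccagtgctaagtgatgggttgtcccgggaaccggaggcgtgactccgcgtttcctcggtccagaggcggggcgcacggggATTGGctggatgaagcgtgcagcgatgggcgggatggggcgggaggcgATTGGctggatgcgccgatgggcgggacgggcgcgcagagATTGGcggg
Rpa1, chr11:75348334-75348633, minus strand: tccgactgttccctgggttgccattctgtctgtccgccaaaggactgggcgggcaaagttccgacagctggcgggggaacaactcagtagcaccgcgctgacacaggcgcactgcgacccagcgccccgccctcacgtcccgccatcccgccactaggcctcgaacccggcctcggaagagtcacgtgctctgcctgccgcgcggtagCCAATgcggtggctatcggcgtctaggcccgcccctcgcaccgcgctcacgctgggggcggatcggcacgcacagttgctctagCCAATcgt

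Of the 40 genes, 33 had a promoter in the RefSeq table, and 14 of these 33 (42.4%) held at least 1 E2F octamer. Over all 27025 genes with a promoter of this length, 2.6% did. The 14 were Cdc6, Cdt1, Gins3, Lig1, Mcm3, Mcm5, Mcm6, Mcm7, Orc1, Pola1, Pold1, Pold3, Pole2 and Rfc3. By their change in Scx+ at day 7, 13 of the 24 genes that rose held an octamer, 0 of the 3 that fell and 1 of the 6 that did not pass. Mcm6 held 3 octamers, Mcm5 held 2 and Cdt1 and Orc1 held 1 each. CCAAT was more common in general: 21 of 33 (63.6%) held it, against 41.1% of all genes, with all 3 genes that fell among the 21. Rrm2, Pold2 and Rpa1 held CCAAT and no octamer in these windows. A match of letters is a description of the sequence, and binding was not measured.

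The licensing genes rose together. Cdt1 (chromosome 8, 122568015 to 122573554, GRCm38), the factor that brings the Mcm ring to the origin, had 496, 553, 441 and 719 units in Scx- libraries and 528, 744, 651 and 673 in Scx+ libraries at day 7, against 51.4, 60.7 and 39.3 in controls. No library of day 7 came near a control, and Cdt1 rose by 3.40 ± 0.23 log2 units in Scx- (SE; adjusted p = 9.21e-09) and 3.64 ± 0.23 in Scx+ (adjusted p = 5.53e-09), a 10.5-fold and a 12.5-fold difference. Orc1 (chromosome 4, 108579423 to 108614833), the large subunit of the origin recognition complex, had 118, 188, 88.8 and 128 units in Scx- and 88.5, 146, 110.0 and 107 in Scx+, against 0, 10.1 and 7.4 in controls. Its fitted rise was 4.39 ± 0.56 in Scx- and 4.21 ± 0.56 in Scx+, and ran from 3.36 to 5.19 and from 3.19 to 5.01 over the alternative settings, since a control listed at 0 makes it depend on the constant added. Orc6, another subunit of that complex, changed less: 902, 813, 774 and 1324 units in Scx- and 1249.9, 1118, 840.5 and 966 in Scx+, against 522, 279.9 and 216 in controls. It rose by 1.55 ± 0.27 in Scx- (adjusted p = 0.000119) and 1.70 ± 0.27 in Scx+ (adjusted p = 4.4e-05). Cdc6, the loading factor that acts with Cdt1, rose by 2.63 ± 0.52 in Scx- and 2.72 ± 0.52 in Scx+. All 4 licensing genes thus passed in each genotype.

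Of the 12 helicase genes, 9 rose in each genotype and none fell, but the Mcm ring subunits were uneven. Mcm5 (chromosome 8, 75109569 to 75128439) had 999.8, 1287, 961 and 1518 units in Scx- and 845, 1608, 1264 and 1506 in Scx+, against 61.7, 131 and 172 in controls. The lowest Mcm5 value at day 7 was far above the highest control, with a rise of 3.36 ± 0.42 in Scx- (10.3-fold, adjusted p = 4.79e-06) and 3.48 ± 0.42 in Scx+ (11.2-fold, adjusted p = 3.04e-06). Mcm6 (chromosome 1, 128331590 to 128359664) had 1875, 2913, 2418 and 3044 units in Scx- and 1866, 2684, 2373 and 2761 in Scx+, against 809, 448 and 539.8 in controls. It rose 4.33-fold in Scx- (2.11 ± 0.23 log2 units) and 4.11-fold in Scx+ (2.04 ± 0.23), again with no overlap. Mcm7, a partner of these proteins in the same ring, had 1039, 1204, 1095 and 1494 units in Scx- and 959.6, 1422, 1209.8 and 1348 in Scx+, against 1167, 952 and 816 in controls. Its groups overlapped, and its differences of 0.31 ± 0.21 in Scx- (adjusted p = 0.212) and 0.34 ± 0.21 in Scx+ (adjusted p = 0.168) did not pass. Mcm2 did not pass in either genotype, at 0.56 ± 0.28 and 0.54 ± 0.28, while Mcm3 rose by 1.44 ± 0.20 in Scx- and 1.41 ± 0.20 in Scx+ and Mcm4 by 1.59 ± 0.22 and 1.53 ± 0.22.

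The helicase activators covered the same range. Mcm10, a scaffold for firing, had 175, 271, 195 and 342 units in Scx- and 139.8, 273, 252 and 229.9 in Scx+, against 53.7, 56.8 and 0 in controls. Every value at day 7 exceeded every control, and the fitted rise was 3.68 ± 0.80 in Scx- (adjusted p = 0.000886) and 3.55 ± 0.80 in Scx+ (adjusted p = 0.00105). Gins3, a GINS subunit, had 187, 225, 176 and 249.9 units in Scx- and 207, 275, 141 and 215 in Scx+, against 76.9, 37.8 and 0 in controls. The control library listed at 0 was the same for both genes, so their fold changes also depend on the constant added. Gins2 rose by 3.09 ± 0.39 in Scx- and 2.97 ± 0.39 in Scx+, Gins1 by 2.20 ± 0.54 and 2.01 ± 0.54, and Gins4 by only 0.54 ± 0.19 and 0.50 ± 0.19. Of the exon length of Gins2, 67.3% overlaps exons of Gse1 on the other strand, and whether counting used the strand is not stated. Smaller overlaps with genes on the other strand exist for Rfc2 (15.1%), Rfc4 (12.7%), Orc1 (10.8%) and Rfc5 (10.7%). Cdc45 did not pass, at 0.55 ± 0.36 (adjusted p = 0.195) and 0.74 ± 0.36 (adjusted p = 0.0819).

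Of the 9 primase and polymerase genes, 6 rose and 1 fell in each genotype, and the primase subunits rose most. Prim2, the large primase subunit, had 524, 631, 403 and 672 units in Scx- and 438, 602, 506 and 495 in Scx+, against 61.9, 96.6 and 53.0 in controls. Prim1 (chromosome 10, 128015168 to 128030037), the catalytic subunit, had 411, 566, 441 and 668 units in Scx- and 451, 621, 433 and 524 in Scx+, against 109.6, 110.1 and 67.0 in controls. Neither gene had a day 7 value near the controls: Prim2 rose by 2.97 ± 0.25 in Scx- (adjusted p = 9.81e-08) and 2.86 ± 0.25 in Scx+ (adjusted p = 1.53e-07), and Prim1 by 2.43 ± 0.28 and 2.40 ± 0.28. The polymerase alpha subunits with which primase works parted. Pola1, the catalytic subunit, rose by 1.44 ± 0.30 in Scx- and 1.35 ± 0.30 in Scx+. Pola2, its accessory subunit, had 661, 722, 707 and 663 units in Scx- and 485, 783, 649.8 and 728 in Scx+, against 965, 565 and 537 in controls, and differed by 0.05 ± 0.19 (adjusted p = 0.838) and -0.03 ± 0.19 (adjusted p = 0.908). Pole2, a polymerase epsilon subunit, rose by 1.89 ± 0.39 in Scx- and 2.16 ± 0.39 in Scx+, while the catalytic Pole did not pass at 0.40 ± 0.31 and 0.31 ± 0.31. In polymerase delta, the catalytic Pold1 rose by 0.81 ± 0.19 and 0.86 ± 0.19 and the accessory Pold3 by 0.96 ± 0.13 and 0.76 ± 0.13.

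The clamp rose and its loader rose in part. Pcna (chromosome 2, 132249162 to 132253314) had 3196, 4201, 3532 and 6248 units in Scx- and 3336, 4092, 3703 and 3951 in Scx+, against 1662, 1149 and 1682 in controls. The Scx- library at 6248 was the highest of all and no day 7 value met a control, with a rise of 1.49 ± 0.23 in Scx- (2.81-fold, adjusted p = 4.04e-05) and 1.35 ± 0.23 in Scx+ (2.55-fold, adjusted p = 9.23e-05). The annotation holds a pair of pseudogenes named for Pcna and one named for Tyms, and how shared reads were assigned is not stated. Rfc5, a small clamp loader subunit, had 573, 720.5, 520.5 and 969 units in Scx- and 616, 741, 576 and 667 in Scx+, against 356, 201 and 255 in controls, rising by 1.35 ± 0.25 and 1.29 ± 0.25. Rfc3 rose by 1.02 ± 0.32 in each genotype and Rfc2 by 0.44 ± 0.16 in Scx- and 0.43 ± 0.16 in Scx+. Rfc1, the large subunit, had 1786, 2069, 1983 and 2204 units in Scx- and 1531, 2076, 1828 and 2028 in Scx+, against 1652, 2086 and 2277 in controls. Its groups overlapped throughout, at 0.01 ± 0.15 (adjusted p = 0.947) and -0.10 ± 0.15 (adjusted p = 0.566), while with library totals as the scale the values were 0.71 and 0.57 and both passed (adjusted p = 0.00104 and 0.00484), where the median over all genes was 0.81 and 0.83. Rfc4 did not pass, at 0.34 ± 0.28 and 0.41 ± 0.28.

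The genes that join the lagging strand rose by unequal amounts. Lig1, the ligase that seals the nicks, had 795, 1148, 937 and 1571 units in Scx- and 769, 1120.0, 1078 and 1206 in Scx+, against 562, 228 and 152 in controls. All day 7 values exceeded the controls, which spread widely, and Lig1 rose by 1.99 ± 0.33 in Scx- (adjusted p = 8.12e-05) and 1.92 ± 0.33 in Scx+ (adjusted p = 9.77e-05). Fen1, the nuclease that trims the flaps, had 602, 720.4, 534 and 869.6 units in Scx- and 549.7, 728, 721 and 738 in Scx+, against 438, 508 and 454 in controls. The groups parted by a narrow margin, and Fen1 rose by 0.52 ± 0.21 in Scx- (adjusted p = 0.044) and 0.54 ± 0.21 in Scx+ (adjusted p = 0.0352). The call held under 20 of 32 alternatives in Scx- (adjusted p up to 0.162) and 26 of 32 in Scx+ (up to 0.285), and in Scx- it was lost without any 1 of the controls. An antisense gene covers 78.8% of its exons, so reads of the pair cannot be told apart without strand.

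All 4 nucleotide supply genes rose in each genotype, with Rrm2 far ahead. Rrm2 (chromosome 12, 24708241 to 24714146), the small subunit of ribonucleotide reductase, had 1510.0, 2312, 1369 and 2299 units in Scx- and 1539, 2474, 1764 and 1841 in Scx+, against 76.3, 20.1 and 115 in controls. The lowest value at day 7 was many times the highest control, and Rrm2 rose by 4.96 ± 0.42 in Scx- (31.0-fold, adjusted p = 9.36e-08) and 5.0 ± 0.42 in Scx+ (32.0-fold, adjusted p = 8.47e-08). Its partner Rrm1, the large subunit, had 2618, 3370.5, 2495 and 4088 units in Scx- and 2657, 3264, 3056 and 3438 in Scx+, against 1373, 1739.7 and 2564 in controls. Rrm1 started high, and its rise was 0.75 ± 0.27 in Scx- (1.68-fold, adjusted p = 0.0227), where 1 library lay below the highest control, and 0.76 ± 0.27 in Scx+ (1.69-fold, adjusted p = 0.0207), where none did. Tyms, which makes thymidylate, had 661, 814, 618 and 1294 units in Scx- and 792, 1043, 818 and 889 in Scx+, against 292, 64.9 and 84.9 in controls. It rose 6.79-fold in Scx- and 7.38-fold in Scx+, and Tk1, the thymidine salvage kinase, 3.36-fold and 3.31-fold.

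Pold2, Rpa1 and Rpa2 fell, the only members to do so at day 7 by this test. Pold2, an accessory subunit of polymerase delta, is named here after its values were seen. Pold2 (chromosome 11, 5872180 to 5878292) had 705, 722, 720.1 and 765 units in Scx- and 601, 658, 704 and 794 in Scx+, against 2092, 2369.7 and 1737 in controls. It fell by 1.49 ± 0.31 in Scx- (adjusted p = 0.000557) and fell by 1.58 ± 0.31 in Scx+ (adjusted p = 0.000298). Rpa1 (chromosome 11, 75298166 to 75348324), the large subunit of the protein that coats single strands, had 1834, 2434, 2594 and 2457 units in Scx- and 1799, 2174, 2074 and 2395 in Scx+, against 4184, 4696 and 5006 in controls. Rpa2, the middle subunit, had 761, 903, 820.3 and 919 units in Scx- and 782, 1082, 852 and 815 in Scx+, against 1864, 1907 and 1607 in controls. For all 3 genes every day 7 library lay below every control: Rpa1 fell by 1.0 ± 0.22 in Scx- and fell by 1.14 ± 0.22 in Scx+, and Rpa2 fell by 1.07 ± 0.23 in Scx- and fell by 1.03 ± 0.23 in Scx+. Rpa3, the small subunit, went the other way and rose by 0.97 ± 0.37 in Scx- (adjusted p = 0.0319) and 0.93 ± 0.37 in Scx+ (adjusted p = 0.036), with overlap: 364, 420.3, 503 and 712 units in Scx- and 612, 508, 434 and 368 in Scx+, against 327, 121 and 379 in controls.

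The muscle share was highest in the controls, where these 3 genes were highest, and varied most within Scx- at day 14. Within Scx- at day 14, the libraries with 16.7%, 19.6%, 4.63% and 4.38% muscle signal had 1359, 1549.9, 489 and 593 units of Pold2, 3108, 3773, 1813 and 1793 of Rpa1 and 1026, 1678, 666 and 754 of Rpa2. The 2 muscle-rich libraries were the highest of the 16 stimulated libraries for Pold2 and Rpa1. Among libraries with less muscle the order varied by gene and group. In Scx- at day 7 the library at 0.376% muscle had 765 units of Pold2, 2457 of Rpa1 and 919 of Rpa2. The library at 6.33% had 720.1, 2594 and 820.3. In Scx+ at day 7 the libraries at 0.0386% and 0.239% had 658 and 601 units of Pold2 and 1082 and 782 of Rpa2. Those at 2.09% and 2.22% had 704 and 794 of Pold2 and 852 and 815 of Rpa2. In Scx+ at day 14 the library at 9.12% had the highest Pold2 of its group, 865 units, and the lowest Rpa2, 722. With the muscle covariate, none of the 3 falls passed in Scx+ at day 7, while all passed in Scx-. With library totals as the scale, all 3 still pointed down at day 7, but Rpa1 in Scx- and Rpa2 in both genotypes did not pass. The part of muscle in these falls was not tested further.

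**Figure D2:**
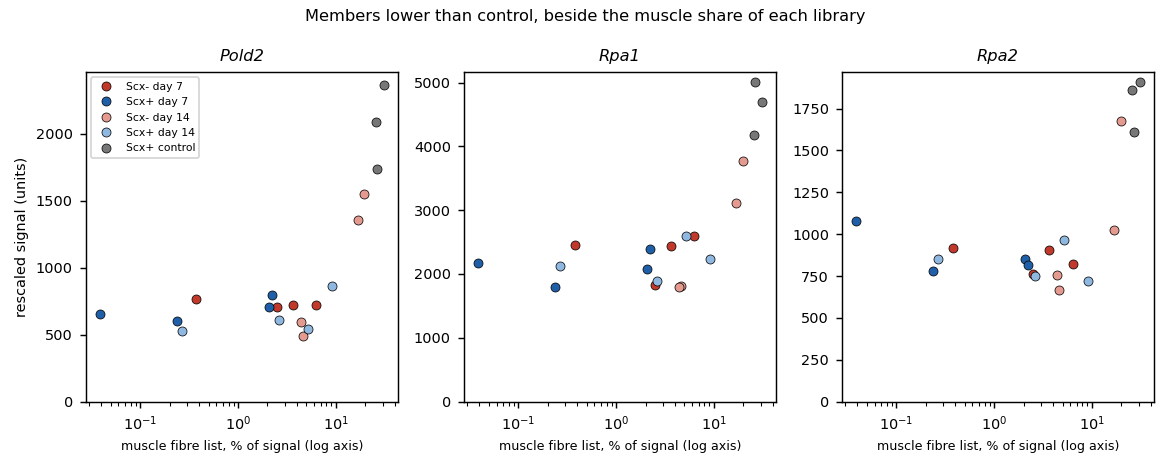
Rescaled signal (y axis, units) of Pold2, Rpa1 and Rpa2 against the share of signal held by 21 skeletal muscle fibre genes (x axis, %, log scale), 1 dot per library. The 3 controls at 25.8% to 31.1% are at the top for Pold2 and Rpa1, and the 2 Scx- day 14 libraries at 16.7% and 19.6% lie between them and the rest.

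At day 14 fewer genes stood apart from the controls. In Scx- mice 20 rose, 3 fell and 17 did not pass, where 43.9% of all genes passed, 25.5% higher and 18.3% lower. In Scx+ mice 22 rose, 4 fell and 14 did not pass, where 55.9% passed, 30.9% higher and 25% lower. The median was 0.64 in Scx- and 0.79 in Scx+, beside 0.12 and 0.15 over all genes. The libraries lay wholly above the controls for 17 genes in Scx- and 15 in Scx+, where 20.7% and 26.9% of all genes did so, and wholly below for 2 and 3, where 17.4% and 25% did. With the compared groups fitted alone, 11 rose and 1 fell in Scx-, and 13 rose and 3 fell in Scx+. Those fits called 4271 of 15638 genes in Scx- and 7942 of 15719 in Scx+. With the values as deposited, 11 rose and 5 fell in Scx-, and with the muscle covariate 10 rose and 3 fell in Scx+. These settings called 7911 of 16622 and 6037 of 16625 genes. With both directions counted, the members thus passed no more often there than genes in general. The median of the members was 0.3 in Scx- and 0.43 in Scx+ there, beside -0.2 and 0.14 over all genes. The muscle shares at day 14 (at most 19.6%) and in controls (at least 25.8%) do not overlap either. Muscle content and the stimulus thus cannot be told apart at day 14.

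**Figure D3:**
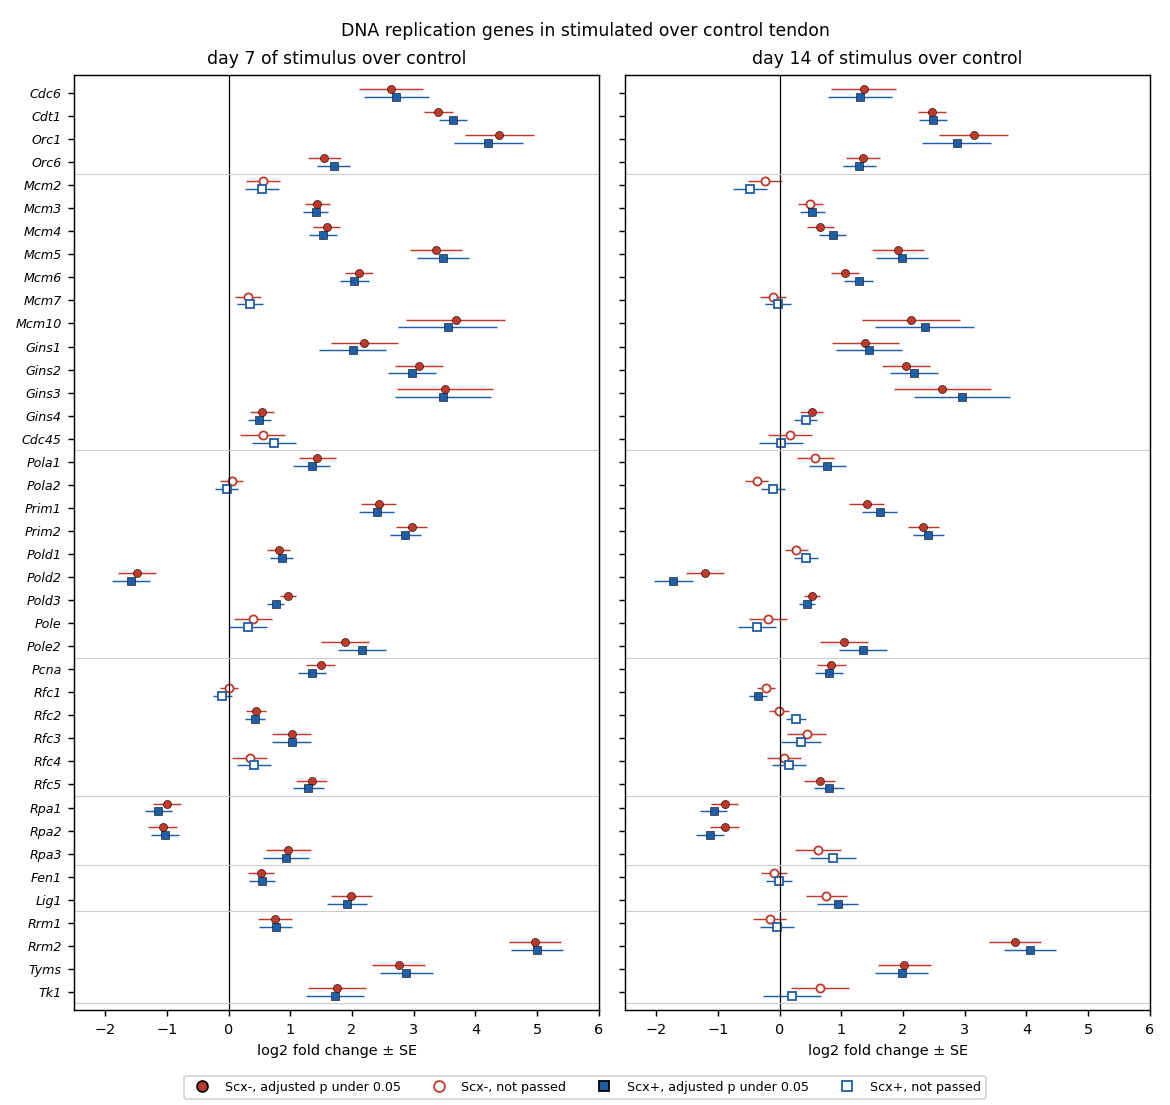
Log2 fold change over control (x axis, bars are 1 SE) of the 40 genes, ordered by role from licensing at the top to nucleotide supply at the bottom, at day 7 (left) and day 14 (right). Circles are Scx- and squares Scx+, filled where the adjusted p was under 0.05. Rrm2 reaches 4.96 and 5.0 at day 7, and Pold2, Rpa1 and Rpa2 lie left of 0 in all 4 comparisons.

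By role, 4 of 4 licensing genes rose in each genotype at day 14, Cdt1 by 2.47 ± 0.23 in Scx- and 2.49 ± 0.23 in Scx+ and Orc1 by a fitted 3.15 ± 0.56 and 2.87 ± 0.56. Cdc6 passed by little, at 1.36 ± 0.52 in Scx- (adjusted p = 0.0435) and 1.30 ± 0.52 in Scx+ (adjusted p = 0.0429), and its call held under 15 of 32 alternatives in Scx- and 18 of 32 in Scx+. Of 12 helicase genes 8 rose in each, Mcm5 by 1.92 ± 0.42 in Scx- and 1.98 ± 0.42 in Scx+. Of 9 primase and polymerase genes 4 rose in Scx- and 5 in Scx+, of 6 clamp genes 2 in each (Pcna by 0.84 ± 0.23 and 0.80 ± 0.23, and Rfc5 by 0.65 ± 0.25 and 0.80 ± 0.25), and of 4 nucleotide genes 2 in each. Of all genes, 25.5% were higher in Scx- and 30.9% in Scx+ at day 14, and the clamp count is near those shares. Rrm2 rose by 3.81 ± 0.42 in Scx- (14.0-fold) and 4.06 ± 0.42 in Scx+ (16.7-fold) and Tyms by 2.02 ± 0.43 and 1.98 ± 0.43. Rrm1, Tk1 and Fen1 did not pass in either genotype, at -0.16, 0.65 and -0.09 in Scx- and -0.04, 0.20 and -0.01 in Scx+. Lig1 had 438, 499, 437 and 455 units in Scx-, which did not pass (0.76 ± 0.33, adjusted p = 0.0732), and 630.5, 649, 422 and 414 in Scx+, which rose by 0.94 ± 0.33 (adjusted p = 0.0238). A difference between the genotypes was tested directly and is given below.

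Pold2, Rpa1 and Rpa2 were again below the controls at day 14. Pold2 fell by 1.21 ± 0.31 in Scx- (adjusted p = 0.00455) and fell by 1.72 ± 0.31 in Scx+ (adjusted p = 0.000189). Rpa1 fell by 0.89 ± 0.22 in Scx- and fell by 1.07 ± 0.22 in Scx+, and Rpa2 fell by 0.89 ± 0.23 in Scx- and fell by 1.13 ± 0.23 in Scx+. In Scx-, the muscle-rich library at 1678 units of Rpa2 overlapped the controls, and with library totals Rpa1 and Rpa2 did not pass there. In Scx+ Rfc1 fell as well, and it fell by 0.35 ± 0.15 (adjusted p = 0.049), with 1799, 1613, 1338 and 1507 units in Scx+, against 1652, 2086 and 2277 in controls. Those groups overlapped, the call held under 10 of 32 alternatives (adjusted p from 0.0133 to 0.181), and with library totals the value turned to 0.25.

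The next question is how the genes moved between day 7 and day 14. Most members were lower at day 14 in each genotype: 37 of 40 in Scx- and 39 of 40 in Scx+ had a negative difference, with medians of -0.72 and -0.62 beside 0.02 and 0 over all genes. In Scx- 9 fell and none rose, where 5.25% of all genes passed, 3.86% lower and 1.4% higher. In Scx+ none passed in limma, where 0.0301% of all genes did, while 24 of the 40 had an unadjusted p under 0.05, as 10.6% of all genes had. Every day 14 library lay below every day 7 library for 23 genes in Scx- and 18 in Scx+, where 8.37% and 6.11% of all genes did so. It lay above for none in either, where 4.08% and 3.78% did. The difference between genotypes in this change was itself tested and passed for none, so no change can be called particular to Scx-.

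**Figure D4:**
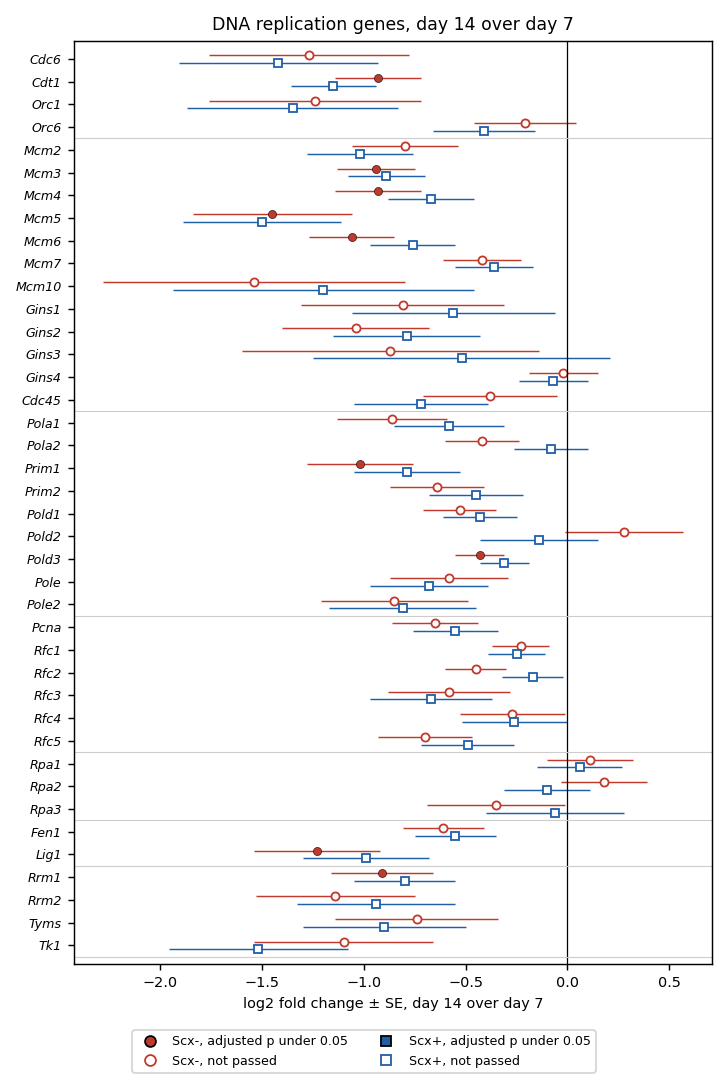
Log2 fold change of day 14 over day 7 (x axis, bars are 1 SE) of the 40 genes in the same order by role, with circles for Scx- and squares for Scx+, filled where the adjusted p was under 0.05. The 9 filled circles are all left of 0, no square is filled, and the lowest values are -1.54 for Mcm10 in Scx- and -1.52 for Tk1 in Scx+.

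The 9 genes that fell in Scx- came from 5 roles. Among the Mcm ring subunits, Mcm3 had 764, 600.4, 715 and 672 units at day 14 against 1120.4, 1465, 1209 and 1521 at day 7, a fall of 0.94 ± 0.19 (adjusted p = 0.00719). Mcm6 had 1418, 1065, 1222 and 1161 units at day 14 against 1875, 2913, 2418 and 3044 at day 7, a fall of 1.06 ± 0.21 (adjusted p = 0.00813). Mcm4 had 617, 706, 807 and 919 units at day 14 against 1253, 1476, 1345 and 1739.5 at day 7, and Mcm5 had 529, 336, 443 and 427 against 999.8, 1287, 961 and 1518. Both fell with no overlap, Mcm4 by 0.93 ± 0.21 (adjusted p = 0.0135) and Mcm5 by 1.45 ± 0.39 (adjusted p = 0.0375). Cdt1 had 332, 306, 234 and 276 units at day 14 against 496, 553, 441 and 719 at day 7, a fall of 0.93 ± 0.21 (adjusted p = 0.0158). Lig1 fell by 1.23 ± 0.31 (adjusted p = 0.0254), with the day 14 libraries within a narrow band of 437 to 499 units against 795 to 1571 at day 7.

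Prim1 had 255, 196, 224 and 356 units at day 14 in Scx- against 411, 566, 441 and 668 at day 7, and fell by 1.02 ± 0.26 (adjusted p = 0.0271). Rrm1 had 1751, 1597, 1504 and 1728 against 2618, 3370.5, 2495 and 4088, and fell by 0.91 ± 0.25 (adjusted p = 0.0405). Pold3 had 787, 708, 818 and 855 against 998, 1036, 974 and 1292, and fell by 0.43 ± 0.12 (adjusted p = 0.0494). None of these 3 genes overlapped between the days, though for Pold3 the margin was small and the call held under 9 of 32 alternatives. Rrm1 had returned to the range of the controls (1373, 1739.7 and 2564 units), while Prim1, Cdt1 and Mcm5 were still past the threshold over controls.

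In Scx+ the same 9 genes had values of their own on the same side. Cdt1 had 361, 326, 221 and 268 units at day 14 against 528, 744, 651 and 673 at day 7, a difference of -1.15 ± 0.21 whose adjusted p was 0.0512, the lowest among the members and from 0.00317 to 0.244 over the alternatives. Mcm3 had 949, 855, 628 and 470.2 units at day 14 against 1036, 1404, 1336 and 1443 at day 7 (-0.89 ± 0.19, adjusted p = 0.0865). Mcm5 had 808, 639, 439.7 and 174 against 845, 1608, 1264 and 1506 (-1.50 ± 0.39, adjusted p = 0.174). The Scx+ libraries of day 14 spread widely: replicate 4 held 174 units of Mcm5 and 1032 of Rrm1, where replicate 1 held 808 and 2632. Replicate 4 was also lowest in Mki67, a marker of dividing cells, at 247.3 units where the group reached 4448.9. It had the highest muscle share of its group, 9.12%, and the lowest share of macrophage and monocyte genes, 0.194%. The part of these in its values was not tested. The other 6 differences in Scx+ were -0.67 for Mcm4, -0.76 for Mcm6, -0.79 for Prim1, -0.31 for Pold3, -0.99 for Lig1 and -0.80 for Rrm1. Without replicate 4 none passed and the median was -0.43. With library quality weights, which ran in the compared groups from 0.563 for that library to 4.35 for replicate 4 of Scx+ at day 7, 11 members fell in Scx+. Of all 16625 genes, 616 passed in that fit. Without replicate 1 of Scx+ at day 14, Cdt1 and Mcm3 fell, and without replicate 4 of Scx- at day 7, which enters through the shared spread, 1 member (Cdt1) fell.

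The count in Scx- rests on few libraries. It was 2 without replicate 4 of day 7, 3 without replicate 2 of day 7, 3 without replicate 1 of day 14 and 1 (Cdt1) without both muscle-rich libraries of day 14. Calls over all genes dropped as well, from 873 of 16625 to 386 of 16570, 372 of 16579, 424 of 16561 and 282 of 16498 in the same order. With the muscle covariate the member count was 2 (Mcm3 and Mcm6), with library totals 18 and with the values as deposited 25, where the median over all genes shifted to -0.20 and -0.24. Over all genes these settings called 500 of 16625, 1349 of 16667 and 2604 of 16622. Replicate 4 of Scx- at day 7 was the highest of its group for most of the genes named here, among them Pcna at 6248, Rrm1 at 4088 and Mcm5 at 1518 units. Macrophage and monocyte genes moved the same way: all 16 had a negative difference in each genotype, with medians of -1.31 in Scx- and -0.47 in Scx+, of which 10 passed the test in Scx- and 0 in Scx+. The difference between the genotypes in this change passed for 0 of the 16. They held 0.111% to 0.3% of the signal at day 14 and 0.38% to 0.88% at day 7 in Scx-. Their part in the result was not tested.

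The levels of the genotypes were compared directly at each day. With no unstimulated Scx- libraries, a difference present before the stimulus and a changed response cannot be told apart in such a comparison. All 11 tendon lineage genes, Scx among them, were lower in Scx- at each day. Of these, 4 passed at day 7 and 3 at day 14, where 0.77% and 0.517% of all genes did. All 21 muscle fibre genes were higher in Scx- at each day, and 0 passed. The part of tendon lineage content in the comparison of replication genes was not tested. At day 7 none of the 40 genes passed in limma and none had an unadjusted p under 0.05, where 0.77% and 7.26% of all genes did. The differences of Scx- over Scx+ ran from -0.27 for Pole2 to 0.20 for Pold3, with a median of 0.03 and a lowest adjusted p of 0.8. Cdt1 averaged 551.9 ± 120.2 units over the 4 Scx- libraries and 648.9 ± 89.9 over the 4 Scx+ libraries (SD). For Mcm6 these means were 2562 ± 532 and 2421 ± 406, and for Rrm2 1872 ± 503 and 1905 ± 400.3. The libraries of the genotypes overlapped for all 40 genes, where 3.71% of all genes were wholly higher and 4.17% wholly lower in Scx-. The 95% interval spanned 0 for all 40 and lay within 1 log2 unit either way for 34. For Mcm10, Pole2, Gins1, Gins3, Cdc6 and Orc1 it reached further, so a 2-fold difference cannot be set aside there.

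At day 14 again none passed and none had an unadjusted p under 0.05, where 0.517% and 14.6% of all genes did. Differences ran from -0.32 for Gins3 to 0.50 for Pold2, with a median of -0.07, and 31 of 40 intervals lay within 1 log2 unit. Pold2 averaged 997.8 ± 535 units over the 4 Scx- libraries, the muscle-rich ones at 1359 and 1549.9, and 635.7 ± 157 over the 4 Scx+ libraries (SD), a difference of 0.50 ± 0.29 (adjusted p = 0.409). Rfc2, named after its values were seen, was the only member whose libraries did not overlap, with 1028, 1009, 787 and 987 units in Scx- against 1243, 1179, 1098 and 1075 in Scx+. Its difference of -0.28 ± 0.15 did not pass (adjusted p = 0.394), while 2.94% of all genes were wholly lower and 1.87% wholly higher in Scx-. On the values as deposited it passed at -0.52 (adjusted p = 0.0476), a scale on which the median over all genes was -0.22. Of the exon length of Rfc2, 15.1% overlaps exons of Lat2 on the other strand, so some of its signal may be that of Lat2. The difference between the genotype effects of day 14 and day 7 passed for none, with 0 at an unadjusted p under 0.05, where 0.018% and 4.34% of all genes did. Those differences ran from -0.35 for Gins3 to 0.43 for Tk1. Their 95% intervals lay within 1 log2 unit for 24 of 40 and reached further for 16, with bounds from -2.56 to 1.87. A 2-fold difference between the genotype effects cannot be set aside for those 16.

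**Figure D5:**
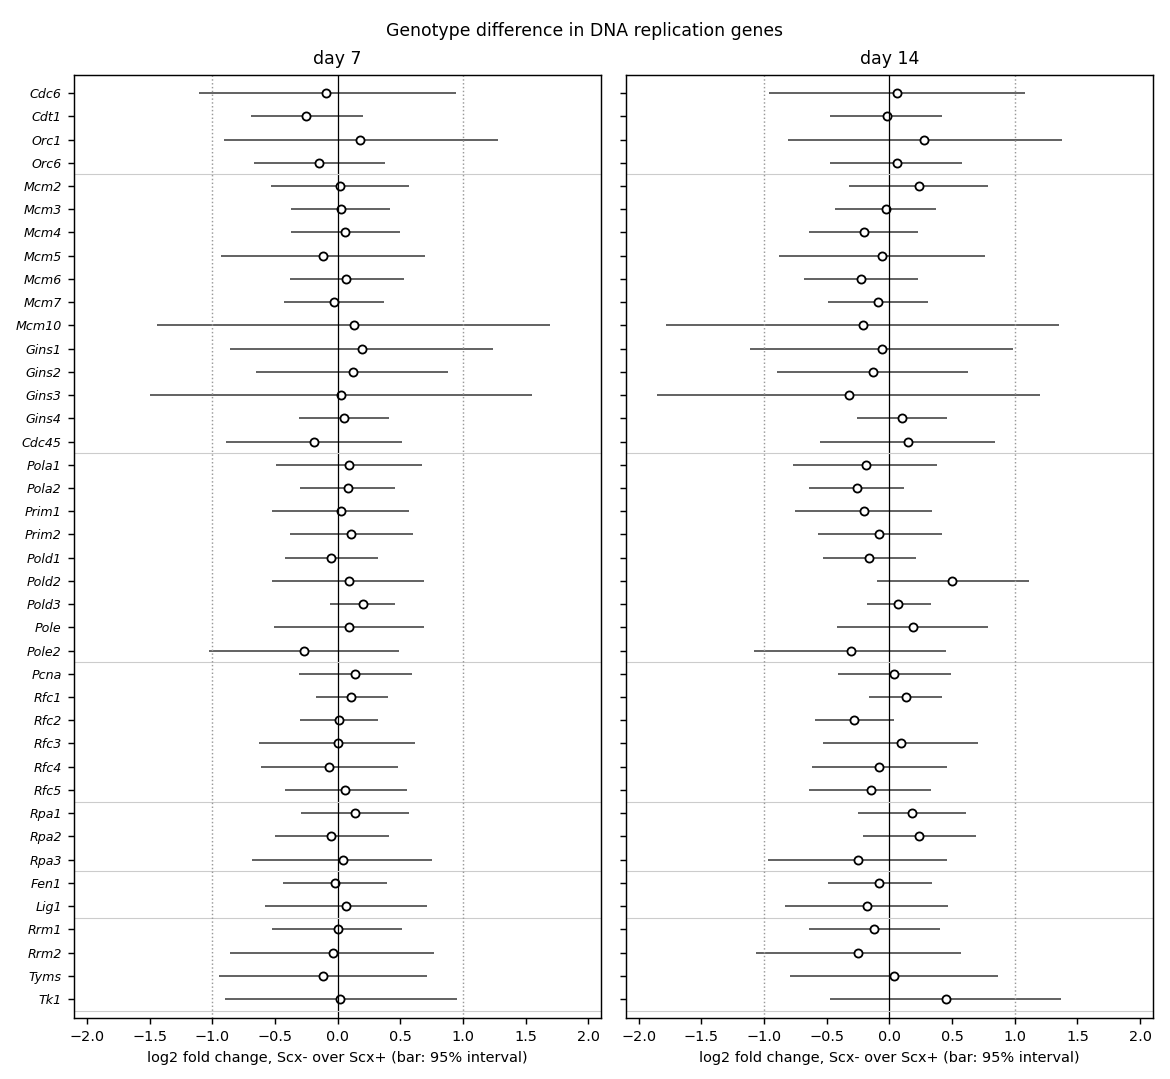
Log2 fold change of Scx- over Scx+ (x axis) of the 40 genes at day 7 (left) and day 14 (right), with bars for the 95% interval and dotted lines at 1 log2 unit either way. Every interval crosses 0, and those of Mcm10 and Gins3 are the widest.

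Set per kilobase of annotated exon, the members differed widely in level. At day 7 in Scx+, Pcna had the highest mean, 1571 ± 138 units per kb (SD, n = 4), followed by Rrm2 at 688 ± 145. The lowest were Mcm10 at 29.1 ± 7.63 and Orc1 at 32.5 ± 6.95. Among controls Pold2, at 1090.0 ± 167 units per kb, and Rpa1, at 829.9 ± 74.4, stood highest, ahead of Pcna at 624 ± 126 (SD, n = 3). Pold2 and Rpa1 both fell at day 7, to 364 ± 42.8 and 379 ± 44.4 units per kb in Scx+. Rrm2 had 25.5 ± 17.3 units per kb in controls. Exon lengths are those of the whole annotated gene and need not be the transcripts present.

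Other genes of replication followed, from a list of 42 further licensing, firing, fork and nucleotide genes chosen with earlier results of these data known. At day 7 31 rose and 2 fell in Scx-, with a median of 1.24, where 32.3% of all genes were higher and 25.9% lower. In Scx+ 28 rose and 2 fell, with a median of 1.18, where 33.8% were higher and 27.5% lower. At day 14 19 rose and 3 fell in Scx-, where 25.5% of all genes were higher and 18.3% lower. In Scx+ 23 rose and 3 fell at day 14, where 30.9% were higher and 25% lower. The 4 with the largest changes in Scx+ at day 7 were Ticrr, which starts origin firing (4.86 ± 0.87, adjusted p = 0.000137), Uhrf1, which couples replication to DNA methylation (4.35 ± 0.44, adjusted p = 5.73e-07), Clspn, a fork checkpoint adaptor (4.0 ± 0.49), and Dbf4, the activator of the firing kinase (3.74 ± 0.30). In Scx- these rose by 5.03, 4.31, 3.95 and 3.76. Between day 14 and day 7, 37 of the 42 differences were negative in Scx- (median -0.74) and 35 in Scx+ (median -0.47). Of these, 8 passed in Scx- and 0 in Scx+, where 3.86% of all genes fell in Scx- and 0.0301% passed in Scx+. Dck, a nucleoside salvage kinase named here after its values were seen, fell by 1.86 ± 0.26 in Scx- (adjusted p = 0.000524), and Uhrf1 fell by 1.86 ± 0.41 (adjusted p = 0.0124).

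Among 13 E2F family and pocket protein genes, which govern S phase transcription, 5 rose and 3 fell in each genotype at day 7. These shares are near those over all genes, of which 32.3% were higher and 25.9% lower in Scx- and 33.8% and 27.5% in Scx+. E2f8, an atypical repressor, rose by 5.42 ± 0.70 in Scx- and 5.25 ± 0.70 in Scx+ (adjusted p = 8.15e-06), and its relative E2f7 by 1.71 ± 0.44 and 1.65 ± 0.44. E2f6, also a repressor, fell by 2.59 ± 0.38 in Scx- and fell by 2.95 ± 0.38 in Scx+ (adjusted p = 5.41e-06), and Tfdp2, a dimer partner of E2F proteins, fell by 1.71 ± 0.37 in Scx- and fell by 1.60 ± 0.37 in Scx+. E2f1, an activator, rose by 1.43 ± 0.23 and 1.46 ± 0.23. Of 7 S phase cyclin, kinase and inhibitor genes 4 rose in each genotype: Ccna2 (cyclin A) by 5.08 ± 0.59 in Scx- and 5.28 ± 0.59 in Scx+, Ccne1 (cyclin E) by 3.50 and 3.52, Cdk2 by 1.65 and 1.83, and the inhibitor Cdkn1a by 2.0 and 1.34. The proliferation markers Mki67 and Top2a rose by 4.81 and 5.47 in Scx- and by 5.01 and 5.62 in Scx+. None of these lists held a gene that passed between the genotypes at either day.

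Markers of cell types other than tendon cells were also set against the controls at day 7, where 32.3% of all genes were higher and 25.9% lower in Scx- and 33.8% and 27.5% in Scx+. Macrophage and monocyte genes, all 16 above 0 in every library, rose in 15 of 16 cases in each genotype and held 0.38% to 0.88% of the signal in Scx- and 0.281% to 0.44% in Scx+, against 0.0437% to 0.1% in controls. Of 8 tested erythroid genes, 1 rose and 3 fell in Scx-, and 5 rose and 2 fell in Scx+. The precursor genes Klf1, Epb42, Hemgn and Rhag were listed at 0 in all 3 controls. The erythroid list of 10 held 0.002% to 0.0209% of the signal in Scx- and 0.0144% to 0.0512% in Scx+, against 0.0617% to 0.0778% in controls. Of 10 satellite cell and myogenic genes, 5 rose in Scx- and 1 rose and 1 fell in Scx+, and of 12 endothelial genes 3 fell in Scx- and none passed in Scx+. The endothelial count in Scx- is thus near the share over all genes. The part of these cell types in the rise of the replication genes was not tested.

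The authors' deposited table of their own comparisons gives adjusted p-values for 15951 genes, the 40 among them. In the authors' deposited table, at day 7 against controls, a total of 27 members were higher and 3 lower in Scx-, and 29 were higher and 3 lower in Scx+, with 57.1% and 61.6% of all its genes under 0.05. In the authors' deposited table the counts at day 14 were 14 higher and 0 lower in Scx- and 16 and 3 in Scx+, with 32% and 50.1% of genes under 0.05. Between day 14 and day 7 the authors' deposited table has 16 members lower in Scx- and 11 lower in Scx+, with 9.05% and 4.99% under 0.05. For Cdt1 the authors' deposited table gives -0.93 in Scx- and -1.16 in Scx+. Between the genotypes the authors' deposited table has no member under 0.05 at either day, where 4.73% of its genes at day 7 and 1.11% at day 14 are.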

How the data were processed

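RNA from 19 plantaris tendon libraries had been sequenced, and the submitters' processing notes name FastQC, STAR, DESeq2 and the build mm10, with roles and versions not given in the sources used here. The authors deposited a scaled signal per gene and library, not whole counts: reads could not be recovered, and depth is unknown. The authors also deposited a table with a log2 fold change and an adjusted p-value for 8 comparisons of 15951 genes, and only the sentences that name it draw on it.

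The signal was rescaled by medians of ratios (factors 0.838 to 1.09). The test was limma 3.58.1 in R 4.3.3 (trend, robust, all 5 groups in 1 fit) on log2(value + 2) of genes that reached 10 in 3 or more libraries, adjusted by Benjamini-Hochberg over 16625 genes in each of 9 comparisons. The method was tested on simulated data, drawn independently for each gene from a normal distribution, with no scaling step and no difference in muscle content. That simulation cannot check how the calls fare where tissue content differs. Alternatives were other scalings (values as deposited, library totals, trimmed mean of M values), pseudocounts 0.5 and 8, other filters, no robust step, a replicate block, a muscle covariate, quality weights, the compared groups alone, and leaving out libraries.

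The members and lists were chosen with earlier results of these data known. Values per library are given for the 2 most and the 1 least changed genes of each larger role group in Scx+ at day 7, for the smaller groups, and for genes that passed between days; other genes were named after their values were seen. Positions are from GENCODE on GRCm38, promoters from RefSeq on GRCm38.p6.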

Additional observations from a re-analysis of the deposited data

Results flagged for a closer look

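For each of the 40 genes and 4 groups of 4 libraries, the highest and lowest library was set against the spread of its group by Dixon's criterion at its 95% level. It marked 7 of 160 groups (4.38%), where chance marks about 1 in 20, so the number is near what chance gives. At day 7 in Scx-, replicate 4 stood above its group for Rfc3, at 712.8 units where the others had 418.3 to 444.7, and for Cdc6, at 282.3 where the others had 172.9 to 185.2. At day 7 in Scx+, replicate 1 stood below its group for Pola1, at 366.7 where the others had 557.8 to 595.9, and for Fen1, at 549.7 where the others had 721.4 to 738.1. At day 14 in Scx-, replicate 3 stood below its group for Rfc2, at 786.6 where the others had 987.0 to 1027.7, and above it for Orc1, at 103.5 where the others had 36.3 to 46.5. At day 14 in Scx+, replicate 4 stood below its group for Rfc3, at 167.0 where the others had 355.3 to 392.7.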

How the results depend on the processing

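Leaving out 1 library at a time gave 28 to 33 genes called in Scx- and 29 to 33 in Scx+ at day 7 over control, 17 to 24 and 18 to 27 at day 14 over control, 2 to 10 for day 14 over day 7 in Scx- and 0 to 2 in Scx+, and 0 throughout for the genotype comparisons. Those fits tested 16535 to 16601 genes in all. At day 7 over control they called 8694 to 9931 in Scx- and 9348 to 10415 in Scx+. At day 14 over control they called 5891 to 7985 and 8155 to 9558. For day 14 over day 7 they called 372 to 1488 in Scx- and 0 to 27 in Scx+. Between genotypes they called 41 to 186 at day 7 and 22 to 195 at day 14, and 0 to 37 for the difference between those effects. The muscle covariate gave 12 in Scx+ at day 7 over control, 13 in Scx+ at day 14 over control and 2 for day 14 over day 7 in Scx-. Of all 16625 genes, that fit called 4146, 6037 and 500 in the same comparisons. Fitting the compared groups alone gave 12 in Scx- and 16 in Scx+ at day 14 over control, where 4271 of 15638 and 7942 of 15719 genes were called. For day 14 over day 7 in Scx-, the values as deposited gave 25, library totals 18 and leaving out both muscle-rich libraries 1. Over all genes these settings called 2604 of 16622, 1349 of 16667 and 282 of 16498. For the same days in Scx+, the values as deposited gave 2, quality weights 11, and a pseudocount of 8, no filter, a mean of at least 50 and leaving out both muscle-rich Scx- libraries 1 each. Over all genes in Scx+, the values as deposited called 28 of 16622 and quality weights 616 of 16625. Between genotypes at day 14 the values as deposited gave 1, where 993 of 16622 genes were called. With library totals the median of all genes over control moved to 0.81 for Scx- and 0.83 for Scx+ at day 7, and to 0.58 for Scx- and 0.73 for Scx+ at day 14, and several values changed sign, among them 6 that had a call on either scale: Rfc1 to 0.57 and Pola2 to 0.65 in Scx+ at day 7, Mcm7 to 0.59, Rfc1 to 0.25 and Fen1 to 0.60 in Scx+ at day 14, and Rfc2 to 0.47 in Scx- at day 14. The replicate numbers did not pair the samples (6 of 36 same-numbered pairs correlated over 0.1, and 2 of 19 libraries were closest to their own number). With them as a replicate block, 33 genes were called in each genotype at day 7 over control, 18 in Scx- and 23 in Scx+ at day 14 over control, and 6 for day 14 over day 7 in Scx-. Of all 16625 genes, the block fit called 9074 in Scx- and 9665 in Scx+ at day 7 over control. It called 6513 and 8585 at day 14 over control and 621 for day 14 over day 7 in Scx-. The cause of these shifts was not tested.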
